A study of Mus musculus with 10 samples.

Results

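The cytochrome P450 genes of the mouse small intestine were followed in RNA-seq libraries of the proximal jejunum, the upper fat-absorbing part of the small intestine. Members were taken by name: every protein-coding gene of the table whose symbol is Cyp followed by a digit, leaving out Cyp51, Cyp27a1 and Cyp4a10, which gave 62 of 24368 genes. The 10 libraries came from 5 mice labelled WT and 5 mice labelled HuR cKO, a conditional knockout of the RNA-binding protein HuR (gene Elavl1) in the intestinal epithelium, and the WT mice were littermates of the knockouts. The Cre driver, further alleles, age, sex, diet and treatment of either group are not stated in the sources. RNA was taken from jejunal tissue, which holds stromal, immune and other cells in which HuR was not targeted. The comparison asks which P450 transcripts of the jejunum differ between the genotypes.

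P450 enzymes carry a heme group that activates oxygen and inserts 1 oxygen atom into a substrate. The Cyp1, Cyp2 and Cyp3 families oxidise drugs, dietary chemicals, steroids and some fatty acids, the Cyp4 family hydroxylates fatty acids and eicosanoids at or near the chain end, and other families act on sterols, bile acids, retinoids and vitamin D. In the intestine the drug-metabolising members sit mainly in villus enterocytes, where Cyp3a enzymes take part in first-pass metabolism of swallowed compounds. Their genes are controlled by nuclear receptors such as PXR (Nr1i2) and CAR (Nr1i3), by the aryl hydrocarbon receptor (Ahr) and by hepatocyte nuclear factors, and many lie in clusters of closely related copies.

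Values are normalised reads, that is, reads per gene after division by the library's size factor. Recovered reads per library ran from 16063987 to 18927440. Of the 62 members, 33 had a mean of at least 10 normalised reads over the 10 libraries and were tested among 14062 genes with limma on log2(value + 1), with p-values adjusted over all genes tested. Elavl1 averaged 666 ± 36.0 in WT and 633 ± 60.6 in cKO (SD, 5 mice each). Which exons were deleted is not stated in the sources, so this whole-gene value does not check the deletion. The libraries cKO 3 and cKO 5 stood apart in clock genes, with the period gene Per2 at 12.7 and 16.0 normalised reads against 342 to 749 in the other libraries. The 11 enterocyte genes listed summed to 741193 normalised reads or more in every library, which shows small intestinal epithelium but not which segment. Each library is labelled as a separate sample, and p-values measure the spread between these samples. Less RNA from fewer cells of a type and less RNA per cell cannot be told apart in these whole-tissue libraries.

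Of the 33 tested P450 genes, 3 fell in the cKO libraries (Cyp3a44, Cyp2b10 and Cyp2d26) and none rose. Over all genes tested, 1.32% were called, 0.882% lower and 0.441% higher. DESeq2 on the recovered reads called 4 members, these 3 lower and Cyp1b1 higher, beside 5.33% of all genes. edgeR with TMM factors called the same 3, beside 1.29% of all genes, and limma without cKO 3 and cKO 5 called Cyp3a44 alone, beside 0.399%. Cyp3a44 is a member of the steroid- and drug-oxidising Cyp3a cluster, Cyp2b10 is the textbook target gene of CAR, and Cyp2d26 belongs to the mouse Cyp2d cluster, the counterpart of the human drug-metabolising gene CYP2D6. The promoter windows of these genes are shown because all 3 genes fell, with that of Cyp3a11, a neighbour of Cyp3a44 that did not pass the test. They are 300-base RefSeq windows of build GRCm38.p6, written 5′ to 3′ on the gene's strand, from 250 bases before to 50 bases after the RefSeq start. Capitals mark matches on either strand to AGGTCA, the half-site of many nuclear receptors, or to CAAAGTCCA, a sequence bound by HNF4.
Cyp3a44, chr5:145805825-145806124, minus strand: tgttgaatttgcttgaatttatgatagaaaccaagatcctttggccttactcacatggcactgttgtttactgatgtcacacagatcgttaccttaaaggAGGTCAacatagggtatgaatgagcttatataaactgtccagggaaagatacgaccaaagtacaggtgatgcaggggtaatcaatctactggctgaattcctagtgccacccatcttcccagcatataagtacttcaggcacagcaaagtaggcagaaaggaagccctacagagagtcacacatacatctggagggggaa
Cyp3a11, chr5:145879805-145880104, minus strand: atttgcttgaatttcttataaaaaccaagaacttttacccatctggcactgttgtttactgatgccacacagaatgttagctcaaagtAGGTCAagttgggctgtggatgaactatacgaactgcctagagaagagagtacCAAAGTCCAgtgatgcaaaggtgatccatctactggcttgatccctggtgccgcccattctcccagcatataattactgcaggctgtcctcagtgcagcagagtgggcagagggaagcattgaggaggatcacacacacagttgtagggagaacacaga
Cyp2b10, chr7:25897408-25897707, plus strand: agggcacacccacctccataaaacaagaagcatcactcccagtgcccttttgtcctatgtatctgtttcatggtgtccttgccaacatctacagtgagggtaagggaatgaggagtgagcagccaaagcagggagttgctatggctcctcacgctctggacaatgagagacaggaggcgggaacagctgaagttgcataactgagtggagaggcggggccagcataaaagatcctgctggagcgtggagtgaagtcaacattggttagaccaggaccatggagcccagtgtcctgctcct
Cyp2d26, chr15:82794196-82794495, minus strand: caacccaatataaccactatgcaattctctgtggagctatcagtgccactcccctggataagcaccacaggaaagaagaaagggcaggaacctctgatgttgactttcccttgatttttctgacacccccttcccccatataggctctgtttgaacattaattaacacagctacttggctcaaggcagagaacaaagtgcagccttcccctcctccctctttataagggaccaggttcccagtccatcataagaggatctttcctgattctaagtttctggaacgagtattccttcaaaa

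The Cyp3a44 window held AGGTCA at position -150 from the start and no CAAAGTCCA, while the Cyp3a11 window held AGGTCA at -162 and CAAAGTCCA at -109. Neither run of letters occurred in the Cyp2b10 and Cyp2d26 windows, which says only that these letters are not in these 300 bases. The CAR-responsive enhancer known for Cyp2b10 lies farther upstream. RefSeq windows were found for 51 of the 62 members, and the 1 nearest to the table's gene start was used for each. The RefSeq start used lay up to 18940 bases from it (Cyp2d9). The shares over all windows count every RefSeq window, without such a choice. AGGTCA was present in 10 of these 51 (19.6%) and in 16.3% of all 32851 windows. CAAAGTCCA was present in 9 of the 51 (17.6%) and in 0.475% of all windows: Cyp2c40, Cyp2c65, Cyp2c67, Cyp2c68 and Cyp2c70 of the Cyp2c cluster, Cyp3a11, Cyp3a16 and Cyp3a41b of the Cyp3a cluster, and Cyp8b1, the sterol 12-alpha-hydroxylase gene. Close copies in a cluster share sequence, so these 9 are not independent occurrences, and a match is a description of letters, not a bound site. Of the other motifs searched on both strands, TATAAA was in 43.1% of member windows and 13.6% of all windows, GATAA in 43.1% and 25.4%, GCGTG (the Ahr core) in 25.5% and 32.4%, and CACGTG (the E-box) in 3.92% and 7.15%. The clock-related D-box, TTATGTAA or TTACGTAA, was in none of the 51 and in 1.06% of all windows.

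Summed over the 62 members and taken per kilobase of gene length, the P450 level was 49121 ± 7146 normalised reads per kilobase in WT and 35195 ± 8749 in cKO (SD, 5 mice each). The WT libraries ran from 36877 (WT 5) to 54924 (WT 1) and the cKO libraries from 23811 (cKO 3) to 46283 (cKO 1), so the groups overlapped. The sum was made up largely of a few genes: Cyp3a13 alone took 30.9% ± 2.17 of it in WT and 32.9% ± 3.76 in cKO, and Cyp4f14 took 22.9% ± 4.06 and 23.6% ± 4.10 (SD, 5 mice each). By subfamily, Cyp3a and Cyp4 genes held 41.3% ± 3.54 and 37.8% ± 5.41 of the WT sum and 41.6% ± 4.01 and 38.3% ± 6.61 of the cKO sum. Cyp2b10 held 5.93% ± 1.06 in WT and 2.84% ± 0.872 in cKO, and the Cyp2c genes 7.30% ± 2.53 and 12.01% ± 3.81 (SD, 5 mice each). A share also moves with the rest of the family sum. The Cyp2c genes themselves summed to 3714 ± 1623 normalised reads per kilobase in WT and 4200 ± 1756 in cKO (SD, 5 mice each).

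**Figure D1:**
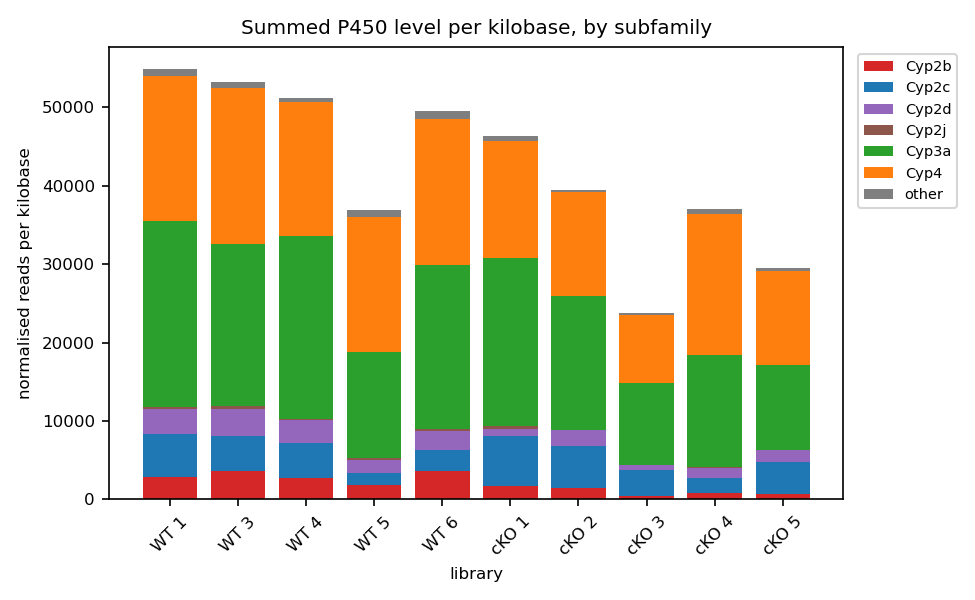
Summed level of the 62 P450 genes in each library, in normalised reads per kilobase, stacked by subfamily (Cyp2b, Cyp2c, Cyp2d, Cyp2j, Cyp3a, Cyp4 and other). Cyp3a and Cyp4 genes make up most of each bar, cKO 3 has the lowest sum (23811 normalised reads per kilobase) and WT 5 the lowest of the WT libraries (36877).

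Of the 33 tested members, 24 had a fitted level below WT and 9 above, where 49% of all genes tested were below. The median log2 fold change was -0.42 over the tested members and 0.01 over all genes tested, and it was -0.22 for the same members without cKO 3 and cKO 5. Members had to reach the mean of 10 reads to be counted here, so these are not values of all 62. Groups did not overlap for 3 members (Cyp3a44, Cyp2b10 and Cyp4v3), all lower in cKO, beside 4.87% of all genes tested without overlap, 3.01% lower and 1.86% higher. At an unadjusted p under 0.05, 11 members were lower and 2 higher, beside 10.1% and 8.46% of all genes tested (18.6% in either direction). In the authors' deposited table, 5 of the 62 members had an adjusted p under 0.05, namely Cyp3a44, Cyp2d26, Cyp2b10, Cyp4v3 and Cyp2s1, beside 2.49% of all genes; which libraries entered that table's p-values is not stated in the sources.

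**Figure D2:**
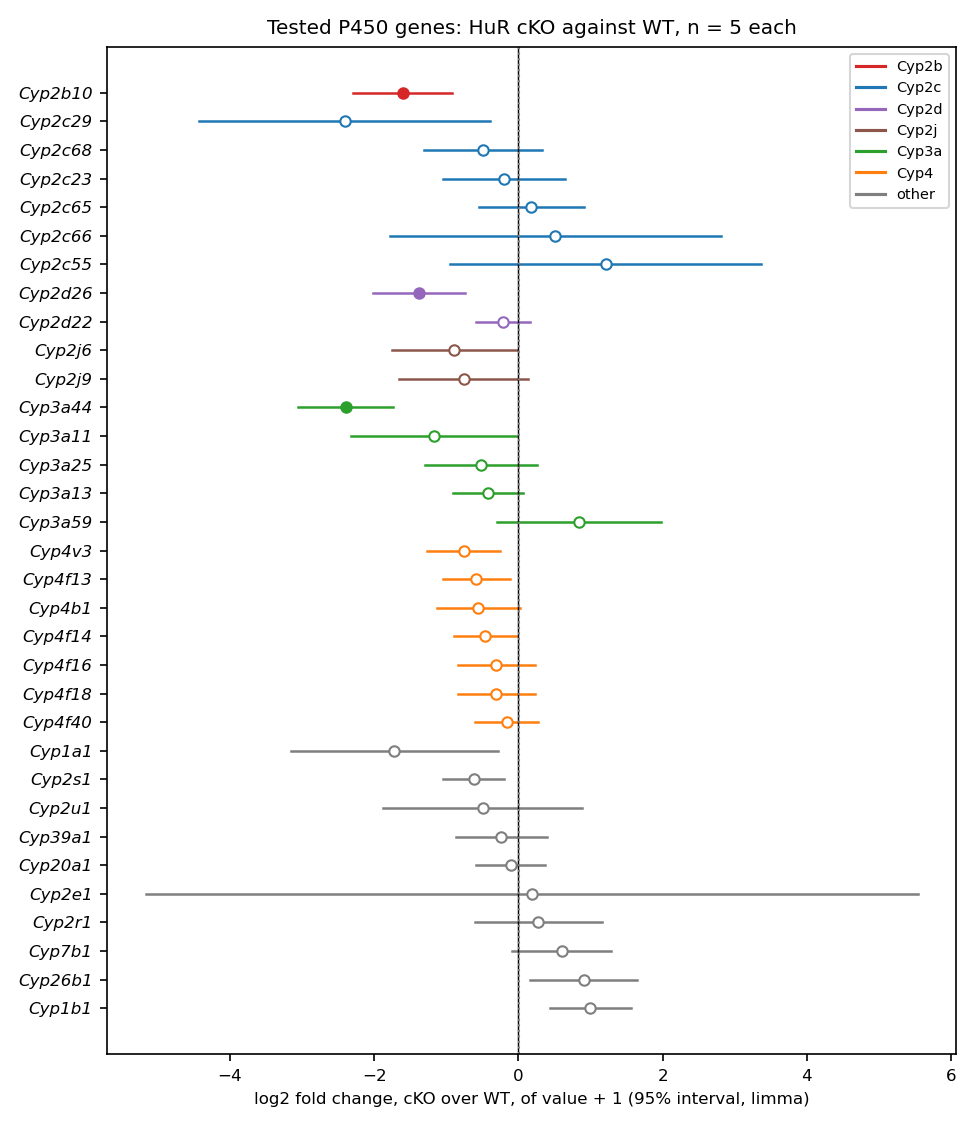
Log2 fold change of cKO over WT on the log2(value + 1) scale with its 95% interval from limma for the 33 tested members, coloured by subfamily; filled points passed an adjusted p of 0.05 and the dotted line is the median of all genes tested (0.01). Filled points stand at Cyp3a44 (-2.40), Cyp2b10 (-1.61) and Cyp2d26 (-1.38), all 7 tested Cyp4 genes lie left of 0, and the interval of Cyp2e1 is the widest.

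Among the Cyp3a genes on chromosome 5, whose enzymes oxidise steroids, bile acids and many drugs, 1 of 5 tested genes fell and 2 of 7 members were too low to test. Cyp3a44 (ENSMUSG00000054417, 145773983 to 145805874, minus strand) measured 123, 75.9, 123, 149 and 130 normalised reads in WT 1, 3, 4, 5 and 6. In cKO 1, 2, 3, 4 and 5 it measured 36.9, 23.6, 9.51, 26.6 and 20.0. Every cKO value lay below every WT value, with cKO 3 the lowest. The fall was 5.26-fold (log2 fold change -2.40 ± 0.31 SE, 95% interval -3.06 to -1.73, limma adjusted p = 0.00185), and the two-sided exact permutation p was 0.00794, the smallest that 5 against 5 allows. It passed in all 20 alternative fits, with limma adjusted p = 0.00445 and a log2 fold change of -2.0 without cKO 3 and cKO 5. Cyp3a44 is a minor transcript, at 61.2 normalised reads per kilobase in WT, and 26.5% of the distinct 50-base runs in its annotated transcripts also occur in other genes, most often in Cyp3a41a, so some of its reads could belong to a copy.

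The abundant Cyp3a genes did not pass the test. Cyp3a13, which lies apart from the other Cyp3a genes at 137892932 to 137921619, was the most abundant P450 gene per kilobase. It measured 52415, 45536, 43226, 33593 and 49271 normalised reads in WT 1, 3, 4, 5 and 6, and 50943, 34645, 24320, 38054 and 24650 in cKO 1 to 5. Its groups overlapped, with cKO 3 and cKO 5 below all WT values (log2 fold change -0.42, 95% interval -0.90 to 0.07, limma adjusted p = 0.341). None of the 50-base runs of Cyp3a13 occurred in another gene. Cyp3a11, the main hepatic drug-metabolising Cyp3a of the mouse and a PXR target, measured 14451, 12327, 24748, 4431 and 9711 in WT and 5657, 13087, 4823, 1956 and 4736 in cKO, in the same library order. It varied more than 5-fold within each group and overlapped between them (log2 fold change -1.17, 95% interval -2.32 to -0.02, limma adjusted p = 0.263). Cyp3a25, another abundant member, averaged 5400 ± 1969 in WT and 3918 ± 1968 in cKO (SD, 5 mice each; limma adjusted p = 0.457), and 26.8% of its 50-base runs are shared, most often with its neighbour Cyp3a59. Cyp3a59 had the 1 positive log2 fold change of the tested Cyp3a genes, 0.84 (limma adjusted p = 0.412), at 8.97 ± 5.19 normalised reads in WT and 14.8 ± 6.004 in cKO (SD, 5 mice each). Cyp3a16 stayed at 7.80 or less, and Cyp3a41b was at 0 in every library, which allows 3 reads per library or 2.38 to 3.81 normalised reads; 93.5% of its 50-base runs occur in other genes, so reads of this copy could also go uncounted or be counted elsewhere.

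**Figure D3:**
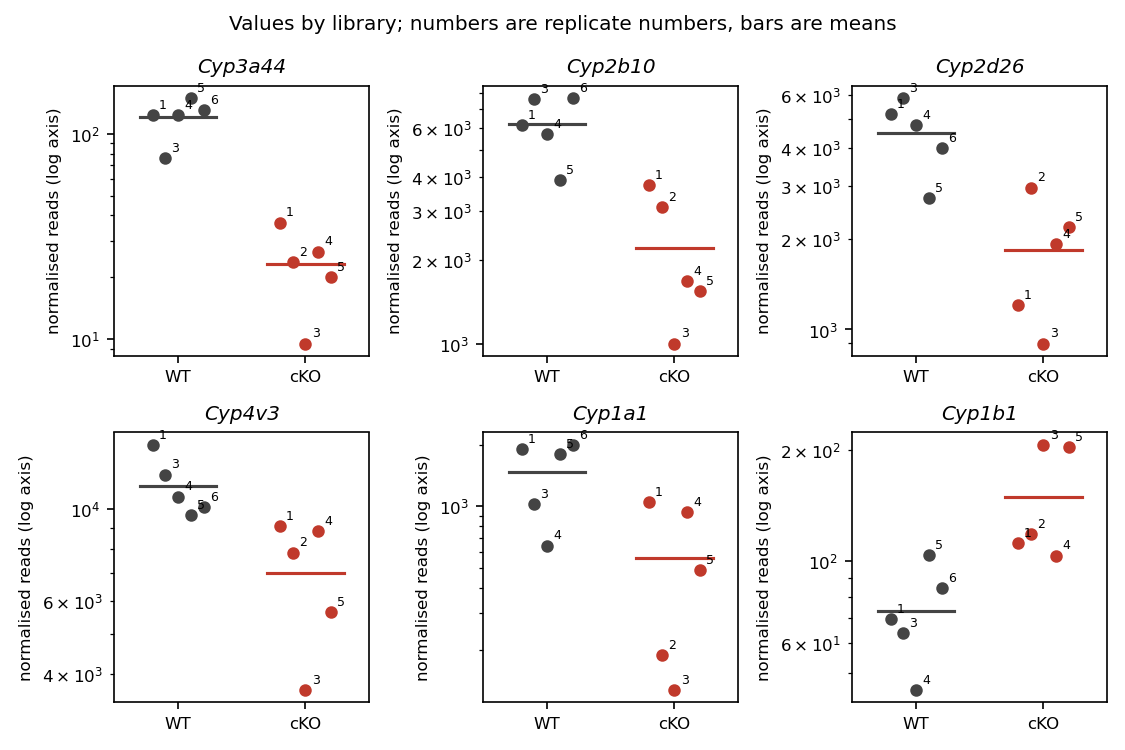
Normalised reads on a log axis in each library for Cyp3a44, Cyp2b10, Cyp2d26, Cyp4v3, Cyp1a1 and Cyp1b1, with replicate numbers beside the points and bars at the group means. Cyp3a44, Cyp2b10 and Cyp4v3 show no overlap between groups, and 1 cKO library (cKO 2, 2954) exceeds the lowest WT value (WT 5, 2734) for Cyp2d26.

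Cyp2b10 (ENSMUSG00000030483, chromosome 7, 25897620 to 25926624, plus strand), an enzyme of drug and steroid oxidation, was the 1 Cyp2b gene among the 62 members. Of its 50-base runs, 8.70% occur in other genes, most often in Cyp2b13. Its values by library follow. Cyp2b10 measured 6118, 7627, 5684, 3896 and 7664 normalised reads in WT 1, 3, 4, 5 and 6 and 3726, 3106, 1003, 1686 and 1547 in cKO 1 to 5. The groups did not overlap, with cKO 1 the highest cKO library and WT 5 the lowest WT library. The fall was 3.04-fold (log2 fold change -1.61 ± 0.32 SE, limma adjusted p = 0.0314, two-sided exact permutation p = 0.00794). Its call was lost in 8 of 20 alternative fits, among them those without WT 1, WT 3, WT 4, WT 6, cKO 3 or cKO 5, where the limma adjusted p ran from 0.0524 to 0.0877. Without both cKO 3 and cKO 5 the log2 fold change was -1.16 (limma adjusted p = 0.104).

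The Cyp2d cluster on chromosome 15 had 2 tested genes of 4. Cyp2d26 (ENSMUSG00000022445, 82790101 to 82794294, minus strand) measured 5167, 5847, 4770, 2734 and 3988 normalised reads in WT 1, 3, 4, 5 and 6. In cKO 1 to 5 it measured 1202, 2954, 897, 1919 and 2182, so 4 of 5 cKO values lay below all WT values. The fall was 2.59-fold (log2 fold change -1.38 ± 0.30 SE, limma adjusted p = 0.0400, two-sided exact permutation p = 0.0159). Its call was lost in 10 of 20 alternative fits, including those without WT 1, 3, 4 or 6 and without cKO 1, 3 or 5 (limma adjusted p from 0.0512 to 0.110). It was also lost with library totals in edgeR (adjusted p = 0.0678) and without both cKO 3 and cKO 5 (log2 fold change -1.20, limma adjusted p = 0.111). Cyp2d22, of the same cluster, held 918 ± 52.4 in WT and 811 ± 206 in cKO (SD, 5 mice each), a log2 fold change of -0.22 with a 95% interval of -0.59 to 0.16 (limma adjusted p = 0.535). Cyp2d9 and Cyp2d10 did not exceed 5.11 normalised reads in any library.

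The Cyp2c genes on chromosome 19 encode enzymes of drug and arachidonic acid oxidation, and none of 6 tested members passed; their log2 fold changes ran from -2.41 to 1.21. Cyp2c65, the most abundant per kilobase, measured 6820, 5703, 5315, 1900 and 3491 normalised reads in WT 1, 3, 4, 5 and 6 and 7978, 5043, 4386, 2775 and 5219 in cKO 1 to 5 (log2 fold change 0.18, 95% interval -0.55 to 0.91, limma adjusted p = 0.812). Cyp2c55, which CAR and PXR agonists induce, had the highest log2 fold change of the tested members in limma, though Cyp1b1 was higher in edgeR and DESeq2. It measured 1439, 578, 1322, 71.8 and 277 in WT and 973, 3456, 1018, 316 and 1366 in cKO, in the same order, so the groups overlapped widely (log2 fold change 1.21, 95% interval -0.95 to 3.37, limma adjusted p = 0.524). Without WT 5 its log2 fold change was 0.54. Cyp2c29, a major hepatic gene that was low here, had a log2 fold change of -2.41 (95% interval -4.43 to -0.39, limma adjusted p = 0.195), which was -1.36 with a pseudocount of 5 and -1.49 without cKO 3 and cKO 5. Its WT values were 20.5, 41.5, 24.4, 0.998 and 9.75, and it had 7.63 and 12.7 in cKO 1 and cKO 2 and no read in the other 3 cKO libraries. Copies overlap in sequence here too, since 20.6% of the 50-base runs of Cyp2c65 and 43.3% of those of Cyp2c68 occur in other genes.

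The Cyp2c genes also differed widely between libraries of 1 genotype. WT 5 had the lowest WT value for all 6 tested Cyp2c genes and for 4 of 5 Cyp3a genes, but for 2 of 7 Cyp4 genes. Over all genes tested, WT 5 was the lowest WT library for 20.9%, and over the 33 members for 19. Among the cKO libraries, cKO 4 was lowest for Cyp2c55, Cyp2c65, Cyp2c66, Cyp2c68, Cyp3a11 and Cyp3a25 and lowest for no Cyp4 gene, and it was the highest cKO library for 4 of 7 Cyp4 genes. Cyp2c66 shows the size of this spread: it measured 30.9 in WT 5 against 257 to 654 in the other WT libraries, and 76.7 in cKO 4 against 220 to 1006 in the other cKO libraries. The library cKO 3 had the lowest value of all 10 libraries for 13 of 33 members, beside 18.0% of all genes tested, and its normalised total was also the lowest. With library totals in edgeR, which changes the tool as well as the scaling, Cyp3a44 and Cyp2b10 were called (adjusted p = 0.000312 and adjusted p = 0.0152) and Cyp2d26 was not (adjusted p = 0.0678).

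**Figure D4:**
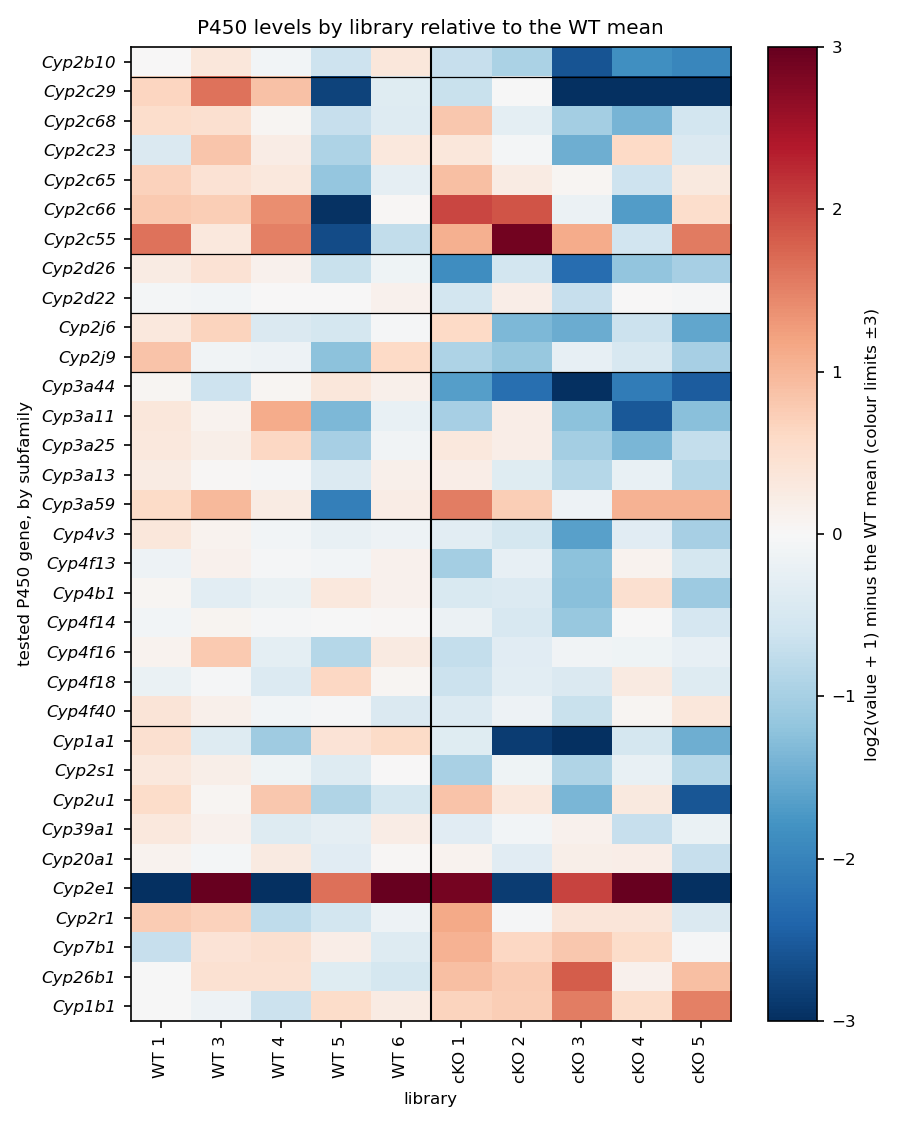
Log2(value + 1) of the 33 tested members in each library minus the mean of the WT libraries, with rows grouped by subfamily and colours limited to ±3. WT 5 is low for the 6 Cyp2c genes, cKO 3 is the lowest cKO library for 5 of 7 Cyp4 genes, and Cyp2e1 is high in some libraries and low in others in both groups.

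The Cyp4 family hydroxylates fatty acids, leukotrienes and vitamin E side chains, and none of its 7 tested genes passed, although all 7 had fitted levels below WT (median log2 fold change -0.46, and -0.23 without cKO 3 and cKO 5). Cyp4v3, the mouse counterpart of the fatty acid hydroxylase gene CYP4V2, had the smallest p of the family. It measured 14297, 12110, 10728, 9666 and 10103 normalised reads in WT 1, 3, 4, 5 and 6 and 9111, 7856, 3664, 8851 and 5657 in cKO 1 to 5. All cKO values lay below all WT values, but the difference did not pass over all genes (log2 fold change -0.76, 95% interval -1.26 to -0.25, limma adjusted p = 0.118). Without cKO 3 and cKO 5 it was -0.39 (limma adjusted p = 0.394). Cyp4f14, which encodes an omega-hydroxylase of leukotrienes and vitamin E, was the second most abundant P450 gene. Its WT values were tight, at 25003, 28002, 25936, 26307 and 27015, and its cKO values were 23553, 18962, 12113, 26268 and 18614, so 4 of 5 lay below the WT range and cKO 4 lay within it (log2 fold change -0.46, limma adjusted p = 0.250). Cyp4f13, a related gene, also had cKO 4 as the highest and cKO 3 as the lowest cKO library, with 816 to 998 in WT, 970 in cKO 4 and 387 to 768 in the other cKO libraries (log2 fold change -0.58, limma adjusted p = 0.172). Cyp4b1, a fatty acid hydroxylase also known for activating lung toxins, ran from 3228 to 5086 in WT and from 1696 (cKO 3) to 5609 (cKO 4), the highest of all 10 libraries (limma adjusted p = 0.290). Cyp4f16, Cyp4f18 and Cyp4f40 had log2 fold changes of -0.30, -0.30 and -0.16.

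In the Cyp2j cluster on chromosome 4, whose members oxidise arachidonic acid and drugs, 2 of 5 genes were tested and neither passed. Cyp2j6, known as an intestinal member, measured 1083, 1383, 637, 596 and 845 normalised reads in WT 1, 3, 4, 5 and 6 and 1312, 339, 307, 549 and 293 in cKO 1 to 5. The cKO 1 value stood within the WT range and the other 4 below it (log2 fold change -0.89, limma adjusted p = 0.257). Without cKO 1 the log2 fold change was -1.26 and it passed (limma adjusted p = 0.0380). Cyp2j9 was low, at 17.3 ± 8.98 in WT and 8.91 ± 2.66 in cKO (SD, 5 mice each; limma adjusted p = 0.350).

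Of the Ahr target genes, Cyp1a1 and Cyp1b1 had fold changes of opposite sign and neither passed the test. Cyp1a1, the classic inducible enzyme for polycyclic aromatics and plant indoles in the gut epithelium, measured 1897, 1028, 643, 1794 and 1996 in WT 1, 3, 4, 5 and 6 and 1045, 188, 127, 940 and 487 in cKO 1 to 5. The values of 3 cKO libraries lay below the WT range (log2 fold change -1.72, 95% interval -3.16 to -0.28, limma adjusted p = 0.200). Cyp1b1, a gene of stromal as well as epithelial cells that oxidises estrogens and aromatics, measured 69.5, 63.8, 44.8, 104 and 84.5 in WT and 112, 118, 206, 103 and 203 in cKO, in the same order. Here 4 of 5 cKO values exceeded all WT values, with cKO 3 and cKO 5 the highest (log2 fold change 1.00, 95% interval 0.44 to 1.56, limma adjusted p = 0.0731). Cyp1b1 passed in DESeq2 (adjusted p = 0.0132) and without cKO 4 (limma adjusted p = 0.0372), and was at 0.65 without cKO 3 and cKO 5 (limma adjusted p = 0.333). Cyp26b1, which breaks down retinoic acid and is expressed in stromal cells, had 9.75 to 20.5 in WT and 28.0, 25.5, 53.9, 16.0 and 28.1 in cKO 1 to 5 (log2 fold change 0.91, limma adjusted p = 0.185). Of the 10 stromal and endothelial marker genes listed, all had fitted levels above WT, and 3 rose, namely Lyve1 (3.10-fold, limma adjusted p = 0.00272), Col3a1 (1.69-fold, limma adjusted p = 0.0357) and Col1a1 (2.03-fold, limma adjusted p = 0.0426). The collagen calls were lost without cKO 3 or without any of WT 1, 3, 4 or 5, and that of Col1a1 also without cKO 5. The summed level of the 10 genes was 25830 to 40559 normalised reads in WT and 24123 to 52481 in cKO. This sum mostly follows Myh11, Acta2 and Des, with WT means of 10159, 9664 and 9287, against 274 for Lyve1, 1216 for Col3a1 and 287 for Col1a1. The part of these 10 genes in the values of Cyp1b1 and Cyp26b1 was not tested.

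Cyp2s1, an extrahepatic enzyme of epithelia, had 760, 692, 558, 466 and 609 normalised reads in WT 1, 3, 4, 5 and 6 and 309, 552, 324, 519 and 337 in cKO 1 to 5, with 3 of 5 cKO values below the WT range (log2 fold change -0.62, limma adjusted p = 0.124). Of the members that act on sterols, Cyp7b1, an oxysterol 7-alpha-hydroxylase gene, was at 18.2 ± 6.28 in WT and 27.5 ± 7.37 in cKO (SD, 5 mice each; limma adjusted p = 0.336), and Cyp39a1, a hydroxylase of 24-hydroxycholesterol, at 19.8 ± 4.33 and 16.7 ± 3.58 (limma adjusted p = 0.708). Cyp2r1, a vitamin D 25-hydroxylase gene, stood at 13.5 ± 6.92 and 16.1 ± 7.29 (limma adjusted p = 0.752), Cyp2u1, a fatty acid hydroxylase gene, at 94.7 ± 44.3 and 83.5 ± 59.3 (limma adjusted p = 0.709), and Cyp20a1, an orphan P450, at 80.5 ± 12.4 and 76.0 ± 19.2 (limma adjusted p = 0.831). The 95% interval of the Cyp20a1 log2 fold change was -0.58 to 0.37. In simulated counts for this 5 against 5 comparison, over genes of all levels, limma recovered 39.2% of 2-fold and 95.2% of 4-fold changes over about 13922 genes. Where the simulated difference was 1.5-fold, the recovery rate was only 2.68%. A call was thus unlikely at that size, so members that did not pass are not shown to be unchanged.

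Cyp2e1, an ethanol- and acetone-oxidising enzyme of liver and fat, was singled out after its values were seen. It had no read in WT 1, WT 4 and cKO 5 and 1.82 normalised reads in cKO 2, but 237, 62.8 and 221 in WT 3, 5 and 6 and 146, 80.8 and 188 in cKO 1, 3 and 4. High and low libraries occurred in both genotypes (limma adjusted p = 0.976, 95% interval of the log2 fold change -5.17 to 5.54). Of 6 fat cell genes, also chosen after the values were seen, 5 (Adipoq, Plin1, Cfd, Car3 and Retn) were at 7.28 normalised reads or less in WT 1, WT 4, cKO 2 and cKO 5 and at 7.98 or more in the other 6 libraries. Lep, the leptin gene, was at 0 in these 4 libraries and also in WT 5 and cKO 3. Adipoq, the fat cell hormone adiponectin, was 0 in WT 1, WT 4, cKO 2 and cKO 5 and 188, 22.9, 246, 109, 65.0 and 224 in WT 3, 5 and 6 and cKO 1, 3 and 4. Plin1, a fat droplet coat gene, was 0 in the first 4 of these libraries and 8.98 to 130 in the other 6. The summed level of the 6 genes ran from 5.85 to 2022 normalised reads in WT and from 6.41 to 2362 in cKO. The 9 hepatocyte genes in the table summed to 14.3 to 54.1 in WT and 26.6 to 56.9 in cKO, and Alb, the albumin gene, was 15.2 or less. The part of fat cell RNA in the Cyp2e1 values was not tested.

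**Figure D5:**
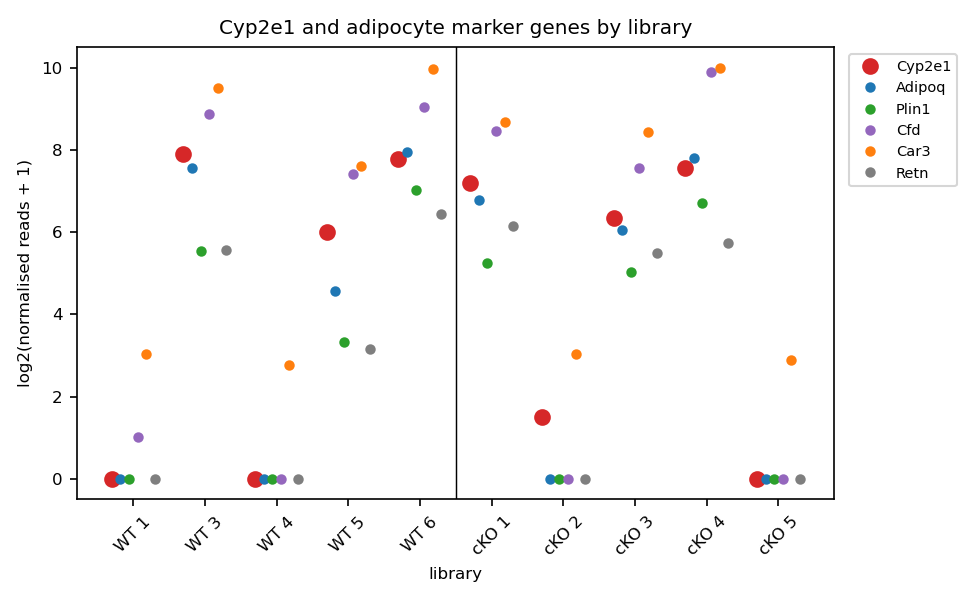
Log2(normalised reads + 1) of Cyp2e1 and of the fat cell genes Adipoq, Plin1, Cfd, Car3 and Retn in each library, with points of 1 library set side by side. Cyp2e1 is at or near 0 in WT 1, WT 4, cKO 2 and cKO 5, where Adipoq is 0, and at 62.8 normalised reads or more in the other 6 libraries.

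The 29 members below the threshold of 10 had means from 0 to 9.72 normalised reads, no single value above 21.7, and no test. They include P450 genes typical of liver, such as Cyp1a2, Cyp2c70, Cyp2f2 and Cyp8b1, and steroid hormone genes, such as Cyp11a1 and Cyp17a1. Cyp11b1 and Cyp11b2, genes of corticosteroid synthesis, had their highest values in WT 6, at 21.7 and 12.99. A mean under 1 was seen for 14 of these members. Another count, of members with no read in any cKO library, gave 8, each with 0 to 14 recovered reads over all 10 libraries. Of these, 1 (Cyp3a41b) had no read in WT either. The same count over all low genes was not made, and such low counts do not measure a difference between genotypes.

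Partners of P450 enzymes were taken from lists by function. Of 10 tested genes for electron donors and other partners, none passed (median log2 fold change -0.13). Por, the reductase that feeds electrons to all microsomal P450 enzymes, measured 10861, 8935, 10773, 11088 and 14540 normalised reads in WT 1, 3, 4, 5 and 6 and 5926, 6825, 3618, 12497 and 5979 in cKO 1 to 5. All cKO libraries other than cKO 4 lay below the WT range (log2 fold change -0.79, limma adjusted p = 0.130). Fdxr, which serves mitochondrial P450 enzymes, had a log2 fold change of -0.70 (limma adjusted p = 0.184). None of 12 heme synthesis and breakdown genes passed (median -0.11), and Alas1, the first enzyme of heme synthesis, was at -0.07 (limma adjusted p = 0.883). Of 7 genes for epoxide, retinoid and prostanoid enzymes, Ephx2 fell 1.96-fold (limma adjusted p = 0.0479). Ephx2 encodes soluble epoxide hydrolase, which hydrolyses the fatty acid epoxides that Cyp2c and Cyp2j enzymes make. It went from 15009 ± 1854 to 7985 ± 2454 (SD, 5 mice each), and its call was lost in 12 of 20 alternative fits, leaving out any single library except cKO 2 or cKO 4 among them (limma adjusted p up to 0.116).

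Among the 21 tested regulators of P450 genes reported here, 16 had fitted levels below WT (median log2 fold change -0.26) and none passed in limma. Nr1i3, which encodes CAR, measured 93.1, 114, 141, 120 and 134 in WT and 52.1, 77.3, 34.9, 110 and 68.9 in cKO (log2 fold change -0.89, limma adjusted p = 0.103), and only cKO 4 reached into the WT range. Nr1i2, which encodes PXR, was at -0.51 (limma adjusted p = 0.184) and Ahr at -0.40 (limma adjusted p = 0.167). Vdr, the vitamin D receptor, was at -0.73 (limma adjusted p = 0.0976). Ahr and Vdr were lower in cKO without overlap between groups, beside 3.01% of all genes tested. Nr1h4, another nuclear receptor gene, lay above WT, at 0.76 (limma adjusted p = 0.126). Hnf4a, an activator of many P450 genes, was at 0.08 (limma adjusted p = 0.868). Dbp and Tef, clock-driven activators of CAR expression in liver, were lowest in cKO 3 and cKO 5, with Tef at 261 and 155 against 1738 to 2355 in the other libraries. In the list of steroid-producing and adrenal genes, 1 of 2 tested genes fell: Akr1b7, an aldo-keto reductase gene that PXR and CAR agonists induce, went from 4630 ± 1302 to 1340 ± 493 (SD, 5 mice each; 3.59-fold, limma adjusted p = 0.00667) and passed in all 20 alternative fits.

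Markers of the villus and crypt were set beside the P450 values. None of 11 enterocyte genes passed and 9 were below WT (median log2 fold change -0.28). Fabp2 and Cdh1 were above WT, at 0.31 (limma adjusted p = 0.547) and 0.14 (limma adjusted p = 0.753). The sum of the 11 genes was 1072197 to 1231759 normalised reads in WT, inside the cKO range of 741193 to 1448659. The highest cKO sum was that of cKO 1, most of it from Fabp2 (569523) and Sis (278981). None of 8 villus tip genes passed and 7 were below WT (median -0.44); the ectoenzyme gene Enpp3 was at -1.02 (limma adjusted p = 0.0505), the nucleoside transporter gene Slc28a2 at -0.73 (limma adjusted p = 0.0851) and the ectonucleotidase gene Nt5e at -1.82 (limma adjusted p = 0.120). Slc28a2 and Nt5e were lower in cKO without overlap, as was the lipoprotein gene Apoa4 of the enterocyte list (log2 fold change -0.86, limma adjusted p = 0.0774). The summed villus tip level was 317070 to 380853 in WT and 152855 to 325658 in cKO. Of 9 tested crypt and proliferation genes, 8 were above WT and none passed (median 0.49). No gene of the immune, duodenal, ileal and clock lists passed, and the hepatocyte and pancreatic acinar lists had 1 tested gene each, with Ahsg and Cpa1 at 0 in every library. The part of these cell types in the P450 values was not tested.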

How the data were processed

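RNA-seq covered 10 proximal jejunum samples, 5 WT and 5 cKO, each 1 library. The submitters' processing notes name CASAVA, HISAT2 2.0.5, featureCounts 1.5.0-p3, DESeq2 1.20.0 and the build mm10, with no role or order. Strand, annotation release and handling of multi-mapped reads are not stated in the sources. The deposited signal is a count divided by a size factor, as found from the values: 100% of values were whole multiples of 1 step per library within 0.001, and whole reads were recovered so. Per gene, the authors deposited their own p-value, adjusted p-value and log2 fold change as well. Another 2 value columns match no sample label and were left out.

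The main test was limma 3.58.1 in R 4.3.3 on log2(value + 1), genotype only, intensity trend, robust, for genes with a mean of 10 or more, with Benjamini-Hochberg adjustment. Fold changes on this scale understate low genes. Alternatives were edgeR 4.0.16 on recovered reads (TMM factors or library totals), DESeq2 1.42.0, other filters and pseudocounts, a replicate block, and leaving out libraries. The limma fit was tested on simulated counts with 200 changed genes in 3 simulations, and 4.71% of its calls were false. Genes were drawn independently of one another, so shifts shared by many genes of 1 library were not simulated. These rates therefore need not hold for the real libraries. Levels between genes are per kilobase of the table's gene length. Sharing of 50-base runs was counted over GENCODE M21 transcripts. Members and lists were chosen with earlier results of these data known. A gene of the regulator list is not reported here. Named members were those past the threshold, the most abundant per subfamily, the 12 smallest p-values and the extreme fold changes. Other members were named after their values were seen. So were the list genes Nr1i2, Nr1i3, Nr1h4, Ahr, Hnf4a, Dbp, Tef, Per2, Alas1, Fabp2, Sis, Cdh1, Myh11, Acta2 and Des. Figures used matplotlib 3.10.9 in Python 3.11.15.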

Additional observations from a re-analysis of the deposited data

Results flagged for a closer look

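Among the named members, 1 value stood far from the others of its group: Cyp2j6 in cKO 1, at 1312 normalised reads, where the other 4 cKO libraries lay between 293 and 549. The gap to the nearest was 0.749 of the group's range. Chance gives such a flag in about 1 in 20 groups. The 18 named members and Cyp2e1 were screened in both genotypes, so 1 flag is no more than chance would give.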

How the results depend on the processing

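The fall of Cyp3a44 kept its direction and passed in all 20 alternative fits, with log2 fold changes from -2.59 to -2.0. Cyp2b10 and Cyp2d26 kept their direction in all 20 and passed in 12 and 10. Members past the threshold numbered 3, and with 1 library left out between 1 and 6; without cKO 3 and cKO 5 there was 1. Members without overlap numbered 3, all lower, beside 4.87% of all genes tested in either direction. With 1 library left out they numbered 3 to 8, the most without cKO 4 (6 lower, 2 higher). Leaving out a library cannot lower this count over the same genes. The share over all genes was not counted for these settings. Over all genes 186 passed, against 750 in DESeq2 (5.33%), 88 in the 8 libraries with shared replicate numbers, 56 without cKO 3 and cKO 5, and 30 to 611 with 1 library left out. The causes of these changes were not tested. With a replicate block on the 8 libraries, 130 genes and 2 members passed (Cyp2b10, log2 fold change -1.68, and Cyp3a44, -2.39), and Cyp2d26 did not (-1.61, limma adjusted p = 0.0825). Same-numbered libraries did not deviate together (correlations -0.105 to 0.118 for 4 pairs), so the number was not taken as a pairing. Signs turned for Cyp20a1 with library totals in edgeR (0.018) and for Cyp2e1 with edgeR TMM (-0.34), library totals (-0.33), DESeq2 (-0.32) and a pseudocount of 5 (-0.024). With 1 library left out, Cyp2c65 ran from -0.11 to 0.38, Cyp20a1 from -0.19 to 0.039 and Cyp2e1 from -0.90 to 1.32. With library totals in edgeR the median over all genes was 0.14 on the log2 scale.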
